A study of Mus musculus with 36 samples.

Results

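The haemoglobin genes of mouse hippocampus described here are the alpha globin genes Hba-a1 and Hba-a2, the beta globin genes Hbb-bs and Hbb-bt, and Alas2. They were taken by name, as the rows of these 5 symbols among the 37315 genes counted in each library, and all 5 were among the 19702 genes that passed a filter on low counts and were tested. Whole-hippocampus mRNA had been sequenced from 36 untreated adult mice, each library coming from 1 animal. The mice were A/J, DBA/2J, 129S1/SvImJ, PWD/Ph, C57BL/6J or DBA/1J, all inbred, with 3 females and 3 males of each. Females were 63 days old and males 62 days old in A/J, DBA/1J and 129S1/SvImJ, and 64 and 63 days old in C57BL/6J, while DBA/2J and PWD/Ph mice of either sex were 62 days old. PWD/Ph mice were kept singly and the other strains in groups. Female and male libraries also carried different spike-in mixes, so that sex and mix cannot be told apart in any strain, nor sex and age in the 4 strains whose ages differ. All mice were killed by decapitation, and the labels mention no flushing of blood from the vessels.

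Haemoglobin is assembled in developing red cells from alpha and beta globin chains, each holding a haem. Alas2 encodes the erythroid form of 5-aminolevulinate synthase, the first enzyme of haem synthesis, while Alas1 serves most other tissues. Circulating reticulocytes and young red cells still carry globin mRNA, so globin reads in a brain sample are commonly taken as a sign of blood in its vessels, and globin transcripts have also been described in some rodent neurons. Inbred strains differ in their beta globin haplotype. Hbb-bs and Hbb-bt are the adult genes of the haplotype in C57BL/6J, the strain of the reference genome, whereas DBA/2J is among the strains with another haplotype, whose genes are named Hbb-b1 and Hbb-b2.

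Because the members of each globin pair are near copies, their coding sequences are shown first. In the GENCODE M21 transcripts the coding sequences of Hba-a1 and Hba-a2 both held 429 bases and differed at 1 of them, C381T, and those of Hbb-bs and Hbb-bt both held 444 bases and differed at 1, C417T. Positions count from 1 at the first base of the start codon, and the base of Hba-a1 or Hbb-bs comes first. The stretches around these differences are printed 5′ to 3′, with the differing base in capitals; Hba-a1 and Hba-a2 lie on chromosome 11 and Hbb-bs and Hbb-bt on chromosome 7.
Hba-a1: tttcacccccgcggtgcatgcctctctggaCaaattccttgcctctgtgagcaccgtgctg
Hba-a2: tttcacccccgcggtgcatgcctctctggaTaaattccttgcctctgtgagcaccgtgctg
Hbb-bs: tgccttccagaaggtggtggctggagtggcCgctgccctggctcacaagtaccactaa
Hbb-bt: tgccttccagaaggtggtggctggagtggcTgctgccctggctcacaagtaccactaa
Of all 50-base windows of the Hba-a2 transcript, 86.9% occurred unchanged in the Hba-a1 transcript, and 58.3% of those of Hbb-bt occurred in Hbb-bs. The same shares were 74.5% and 54.8% for 100-base windows. No 50-base window was shared between Hba-a1 and Hbb-bs. A count for one gene of a pair therefore depends on how reads that match both were assigned, a step the sources used here leave unstated, and the pairs were also tested as sums.

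The promoters are shown as background, and whether they bear on the levels measured here was not tested. Each line holds the 250 bases before the transcript start in RefSeq's annotation of GRCm38.p6, 5′ to 3′ on the gene's own strand. Capitals mark GATAA (the core bound by GATA factors), CACCC (bound by KLF factors), CCAAT and TATAA, each searched on both strands, so that their reverse complements are also marked. The windows are chr11:32283422-32283671 on the plus strand for Hba-a1, chr7:103827929-103828178 on the minus strand for Hbb-bs, chr7:103813924-103814173 on the minus strand for Hbb-bt and chrX:150547167-150547416 on the plus strand for Alas2.
Hba-a1: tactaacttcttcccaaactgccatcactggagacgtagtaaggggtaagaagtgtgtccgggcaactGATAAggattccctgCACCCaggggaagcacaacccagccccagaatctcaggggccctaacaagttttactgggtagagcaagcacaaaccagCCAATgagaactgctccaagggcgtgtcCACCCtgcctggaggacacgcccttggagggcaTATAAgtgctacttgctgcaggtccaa
Hbb-bs: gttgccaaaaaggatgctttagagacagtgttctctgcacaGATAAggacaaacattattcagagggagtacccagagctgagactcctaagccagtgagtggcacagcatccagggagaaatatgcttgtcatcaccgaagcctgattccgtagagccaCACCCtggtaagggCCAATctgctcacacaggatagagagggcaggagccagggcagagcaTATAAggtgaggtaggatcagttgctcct
Hbb-bt: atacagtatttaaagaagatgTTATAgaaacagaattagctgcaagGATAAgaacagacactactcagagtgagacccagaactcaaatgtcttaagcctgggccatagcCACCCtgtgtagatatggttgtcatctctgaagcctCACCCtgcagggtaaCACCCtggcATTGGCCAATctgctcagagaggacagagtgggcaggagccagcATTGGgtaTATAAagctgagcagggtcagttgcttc
Alas2: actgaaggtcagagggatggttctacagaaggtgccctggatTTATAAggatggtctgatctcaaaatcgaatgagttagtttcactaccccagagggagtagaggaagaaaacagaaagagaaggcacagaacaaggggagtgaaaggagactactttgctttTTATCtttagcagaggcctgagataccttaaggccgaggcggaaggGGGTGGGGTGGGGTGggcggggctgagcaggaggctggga
The Hba-a2 window, chr11:32296242-32296491, aligned with that of Hba-a1 at 247 of 253 positions, and Hbb-bs with Hbb-bt at 182 of 258. GATAA was found in the windows of all 5 genes, against 22.6% of 32851 mouse promoters of the same length. CACCC was also found in all 5, against 52% of promoters. CCAAT was found in the 4 globin windows and not in that of Alas2, against 33.8% of promoters, and TATAA in all 5, against 22.8%. In Alas2 a TATAA match lay 207 bases before the start, overlapping a reverse match, whereas each globin gene had one 27 to 30 bases before its start. These are matches of letters and were not tested as binding sites.

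Library totals ran from 6493512 to 35232515 counts, and the 4 globin genes together took 0.00976% to 0.0478% of a library's counts, or 763 to 12882 counts. Levels are given as CPM, counts relative to a library size scaled by the TMM method, and where genes are compared with each other, as the deposited FPKM, which allow for transcript length. Over all libraries Hbb-bs averaged 46.8 FPKM, Hba-a2 46.5, Hba-a1 43.7 and Hbb-bt 25.6 FPKM, levels higher than those of 88.2% to 94.1% of the tested genes. Alas2 averaged 1.42 FPKM, above 32.5% of tested genes. The 4 globin genes were thus among the more abundant transcripts of the tissue, while Alas2 was a low one with 8 to 110 counts per library.

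**Figure D1:**
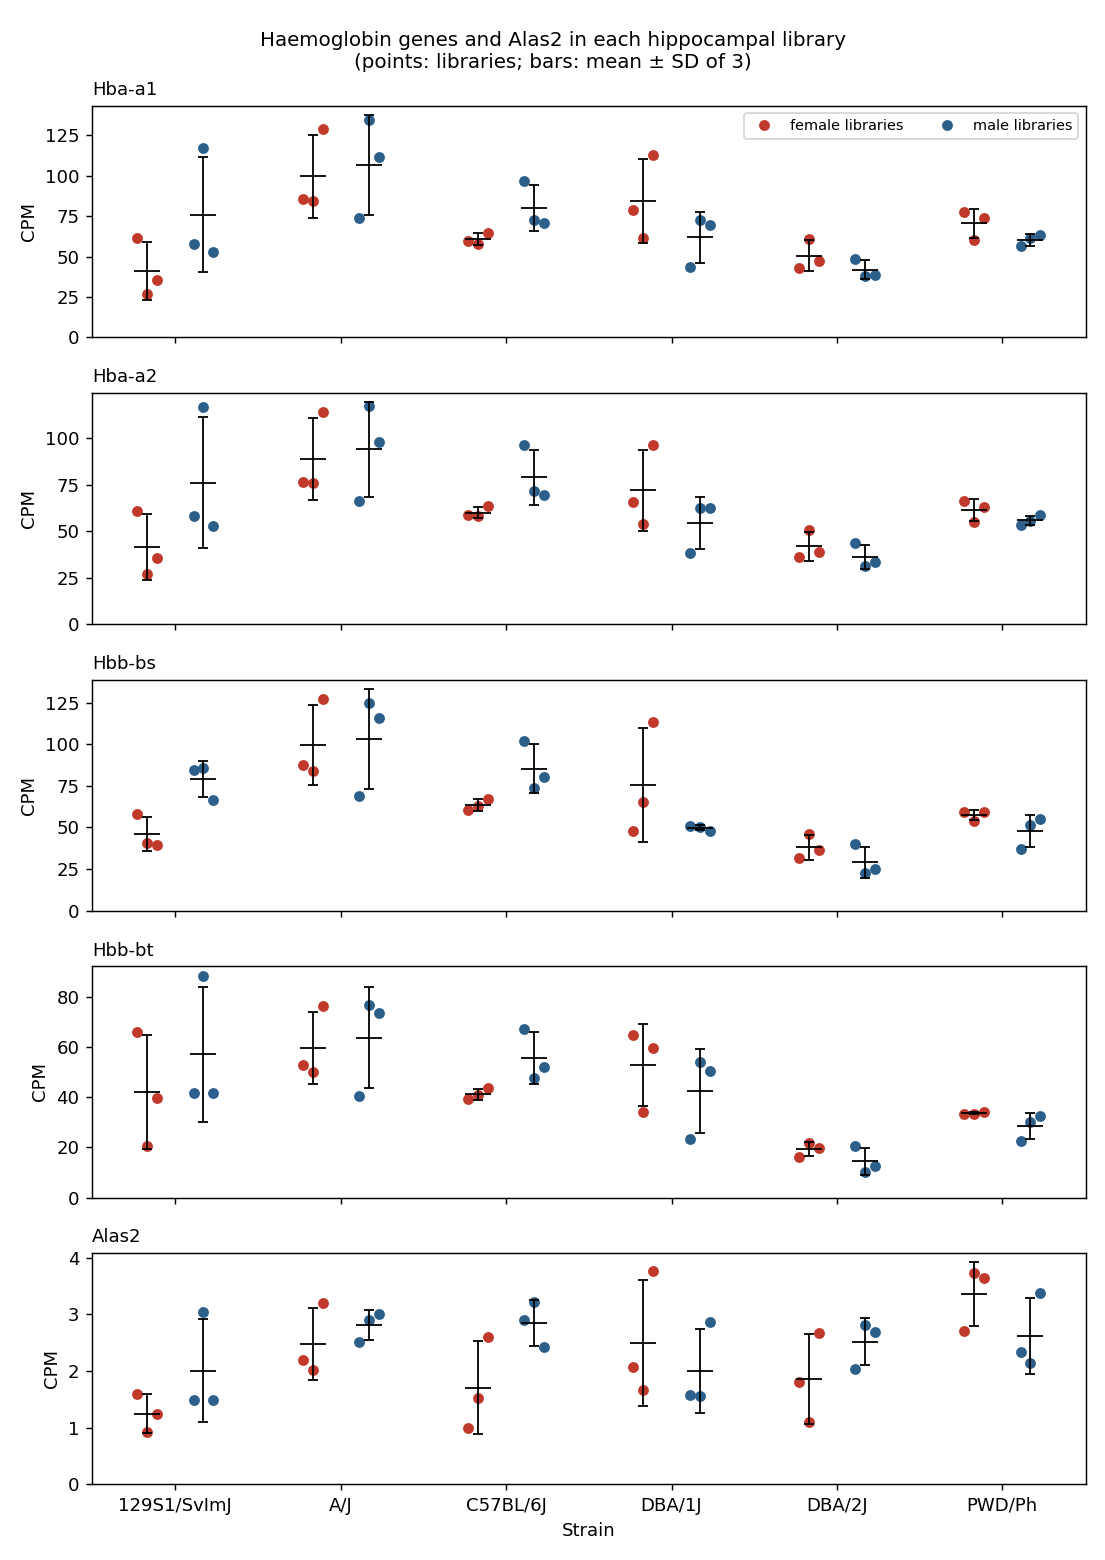
Levels in CPM of the 5 genes in each of the 36 libraries, by strain and sex; points are libraries and bars the mean ± SD of 3. The A/J libraries hold the highest Hba-a1 value, 134.6 CPM, and the DBA/2J libraries the lowest Hbb-bs and Hbb-bt values, 22.5 and 10.3 CPM.

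Among animals of the same strain and sex the globin genes varied far more than most genes of their level. The pooled within-group SD was 0.37 on the log2 scale for Hba-a1, 0.36 for Hba-a2, 0.33 for Hbb-bs and 0.46 for Hbb-bt, against a median of 0.18 over all tested genes. Against genes within 0.5 log2 units of their own mean level, these SDs lay at the 98.2nd percentile for Hbb-bs and up to the 99.4th for Hbb-bt. The Hbb-bt value includes 6 libraries whose Hbb-bt counts and deposited FPKM disagreed, as described below. Alas2 had an SD of 0.36, at the 84.1st percentile of genes of its level, whose median SD was 0.27.

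Globin transcripts were highest in A/J and lowest in DBA/2J. Tested with edgeR's quasi-likelihood test and Benjamini-Hochberg adjustment over all tested genes, all 5 genes differed between strains, where 92% of tested genes did. In A/J against the other 5 strains, 4 of the 5 genes were higher, all of them globins, where 33.2% of tested genes were called in either direction and 18.9% were higher. In DBA/2J against the others, 4 of 5 were lower, again the 4 globins, where 49.5% of genes were called and 24.4% were lower. The median log2 fold change of the 5 genes was 0.76 in A/J and -0.77 in DBA/2J, against 0.01 and -0.01 over all tested genes. In bulk tissue, fewer cells holding a transcript and less of it per cell cannot be told apart.

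For the alpha globins the A/J difference was about 1.7-fold. Hba-a1 had a lowest value of 73.6, a median of 98.4 and a highest of 134.6 CPM in the 6 A/J libraries, against 26.6, 61.2 and 117 CPM in the 30 others. All 6 A/J libraries lay above the median of the others, and the ranges overlapped. The log2 fold change was 0.76 ± 0.14 (SE; edgeR adjusted p = 8.03e-05). Hba-a2 had 66.6, 87.3 and 117.3 CPM in A/J as lowest, median and highest, against 26.8, 58.3 and 116.7 CPM in the others. Its log2 fold change was 0.71 ± 0.14 (SE; edgeR adjusted p = 0.000163), again with all 6 A/J libraries above the others' median.

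The beta globins rose to a similar degree. Hbb-bs had a lowest value of 69.0, a median of 101.5 and a highest of 127.1 CPM in A/J, against 22.5, 54.4 and 113.4 CPM in the other 30 libraries, a log2 fold change of 0.90 ± 0.12 (SE; edgeR adjusted p = 6.36e-07). Hbb-bt had 40.4, 63.2 and 76.8 CPM in A/J, against 10.3, 36.7 and 88.1 CPM in the others, a log2 fold change of 0.79 ± 0.17 (SE; edgeR adjusted p = 0.000511). For both genes the 6 A/J libraries lay above the median of the others, with overlapping ranges. Summed as pairs, the alpha genes differed by 0.73 and the beta genes by 0.85 on the log2 scale, with edgeR adjusted p of 0.000118 and 3.54e-06. Alas2 did not pass the test in A/J, with 2.64 ± 0.47 CPM in A/J (SD, n = 6) against 2.26 ± 0.84 CPM in the others (n = 30) and a log2 fold change of 0.28 ± 0.17 (SE; edgeR adjusted p = 0.228).

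One A/J library stood apart in other blood genes. A/J female replicate 3 had 108 counts of S100a8 and 190 of S100a9, calcium-binding proteins of neutrophils, and 151 of Ngp, a neutrophil granule protein, against at most 9, 34 and 10 counts in the other 35 libraries. It also had 59 counts of Slc4a1, the red cell anion exchanger, against at most 9 counts elsewhere. The summed level of the 14 white blood cell genes was 19.2 CPM there and 0.0912 to 4.64 CPM in the other libraries. Its Hba-a1 level of 129.3 CPM was second to that of A/J male replicate 2, at 134.6 CPM, and its Hbb-bs level of 127.1 CPM was the highest of the 36. Without this library all 4 globins were still called higher in A/J, with log2 fold changes of 0.64 for Hba-a1, 0.60 for Hba-a2, 0.79 for Hbb-bs and 0.68 for Hbb-bt and edgeR adjusted p of up to 0.00590.

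In DBA/2J the beta globins were lower by more than the alpha globins. Hba-a1 had a lowest value of 38.0, a median of 45.3 and a highest of 61.2 CPM in the 6 DBA/2J libraries, against 26.6, 70.2 and 134.6 CPM in the 30 others. Its log2 fold change was -0.64 ± 0.16 (SE; edgeR adjusted p = 0.00159). Hba-a2 had 31.3, 37.5 and 50.9 CPM in DBA/2J, against 26.8, 62.9 and 117.3 CPM in the others, a log2 fold change of -0.77 ± 0.16 (SE; edgeR adjusted p = 0.000233). All 6 DBA/2J libraries were below the others' median for both genes, while the lowest alpha globin values of all, 26.6 and 26.8 CPM, were those of 129S1/SvImJ female replicate 2.

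Hbb-bs had a lowest value of 22.5, a median of 33.8 and a highest of 46.3 CPM in DBA/2J, against 37.1, 63.9 and 127.1 CPM in the other libraries. The log2 fold change was -1.02 ± 0.15 (SE; edgeR adjusted p = 1.36e-06). Hbb-bt showed the largest strain difference of the 5 genes, with 10.3, 17.9 and 21.7 CPM in DBA/2J against 20.4, 42.6 and 88.1 CPM in the others, a log2 fold change of -1.46 ± 0.22 (SE; edgeR adjusted p = 2.32e-06). Both ranges overlapped the others' only at the edge. Summed as pairs, the alpha genes differed by -0.70 and the beta genes by -1.19 on the log2 scale, with edgeR adjusted p of 0.000525 and 2.18e-07. Alas2 had 2.18 ± 0.67 CPM in DBA/2J (SD, n = 6) against 2.35 ± 0.83 CPM (n = 30), a log2 fold change of -0.10 ± 0.21 that did not pass the test (SE; edgeR adjusted p = 0.714). Male replicate 2 and female replicates 2 and 3 of DBA/2J were shallow, with 7814418, 7422602 and 6493512 counts. Without those 3 libraries all 4 globins were still called, at log2 fold changes of -0.75 for Hba-a1 to -1.52 for Hbb-bt.

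For the beta globins of strains with another haplotype, fewer transcripts and fewer reads that match the C57BL/6J genes cannot be told apart. The labels leave the beta globin haplotype of each strain unstated. Mean Hbb-bs was 101.3 CPM in A/J, above the 74.4 CPM of C57BL/6J. It was 62.6 CPM in DBA/1J, 62.5 in 129S1/SvImJ, 52.6 in PWD/Ph and 33.6 CPM in DBA/2J. The part of haplotype in the low DBA/2J values was not tested.

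**Figure D2:**
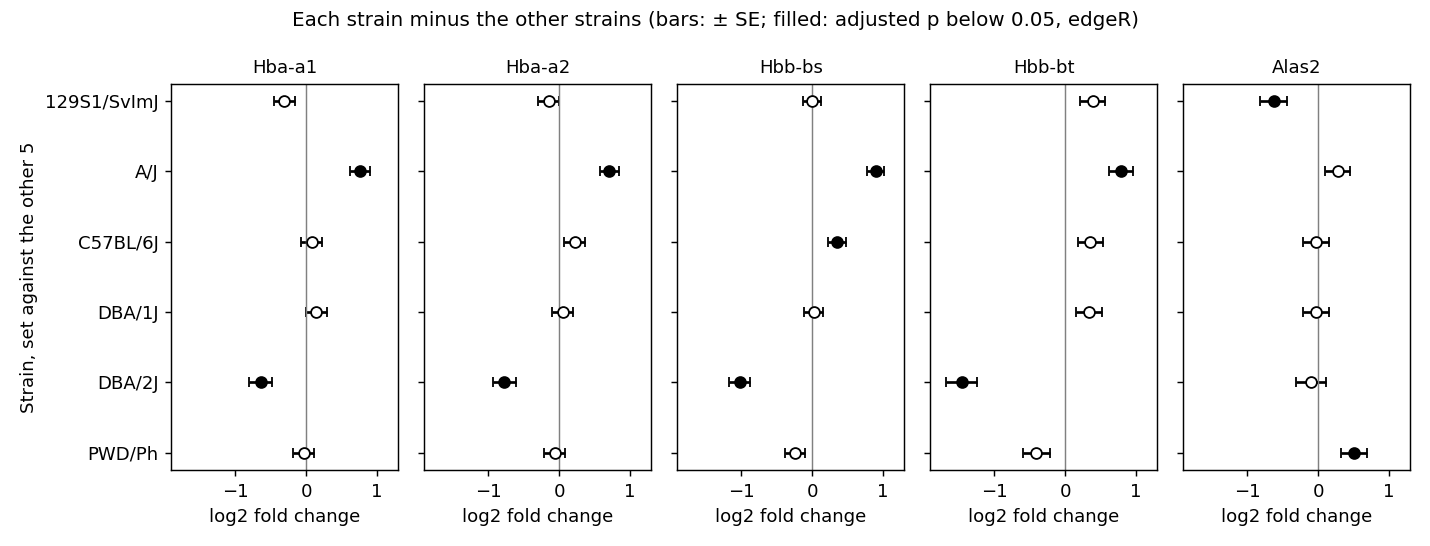
Log2 fold change of each of the 5 genes in one strain against the other 5 strains; bars are ± SE and filled points had an edgeR adjusted p below 0.05. All 4 globins are filled to the right of 0 for A/J, from 0.71 to 0.90, and to the left for DBA/2J, from -0.64 to -1.46, while Alas2 is filled for 129S1/SvImJ at -0.62 and PWD/Ph at 0.51.

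Alas2 followed another order of strains. In 129S1/SvImJ, 1 of the 5 genes was called, where 67.4% of tested genes were called and 32.1% were lower. That gene was Alas2, with a lowest value of 0.914, a median of 1.49 and a highest of 3.05 CPM in 129S1/SvImJ, against 0.990, 2.55 and 3.76 CPM in the other libraries. Its log2 fold change was -0.62 ± 0.19 (SE; edgeR adjusted p = 0.00497), and the highest 129S1/SvImJ value came from male replicate 2 alone, the next being 1.59 CPM. In PWD/Ph, 1 of the 5 was called, where 70.5% of genes were called and 34.4% were higher. It was again Alas2, with 2.13, 3.04 and 3.72 CPM in PWD/Ph as lowest, median and highest, against 0.914, 2.14 and 3.76 CPM in the others. The log2 fold change was 0.51 ± 0.18 (SE; edgeR adjusted p = 0.0136). This call was lost when PWD/Ph male replicate 3, the deepest library, was left out, and when the deposited FPKM were tested with limma (log2 difference 0.35 with 0.1 FPKM added, adjusted p = 0.0765). The beta pair, when summed, was lower in PWD/Ph, at -0.31 ± 0.14 on the log2 scale (SE; edgeR adjusted p = 0.0494).

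In C57BL/6J, 1 of the 5 genes passed the test, where 34.7% of genes were called and 21.1% were higher. Hbb-bs had a lowest value of 60.6, a median of 70.4 and a highest of 101.8 CPM in C57BL/6J, against 22.5, 54.4 and 127.1 CPM elsewhere. The log2 fold change was 0.34 ± 0.13 (SE; edgeR adjusted p = 0.0345). DESeq2 did not call it, and leaving out any one of 11 libraries ended the edgeR call. The beta pair, when summed, was higher in C57BL/6J, at 0.34 ± 0.13 on the log2 scale (SE; edgeR adjusted p = 0.0442). In DBA/1J, 0 of the 5 genes passed edgeR's test, where 53.4% of genes did; 0 of 5 had an unadjusted p under 0.05 and DESeq2 called 0. The DBA/1J log2 fold changes ran from -0.03 for Alas2 to 0.34 for Hbb-bt.

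Ordered by mean CPM, Hba-a1 ran from A/J (103 ± 25.6, SD, n = 6) through DBA/1J, C57BL/6J, PWD/Ph and 129S1/SvImJ to DBA/2J (46.2 ± 8.52). Of the 5 steps between neighbours, only that of A/J over DBA/1J passed the edgeR test, with a log2 fold change of 0.51 ± 0.19 (SE; adjusted p = 0.0337). For Hba-a2 the order was A/J, C57BL/6J, DBA/1J, PWD/Ph, 129S1/SvImJ, DBA/2J, and only 129S1/SvImJ over DBA/2J passed. Hbb-bs fell in the order A/J, C57BL/6J, DBA/1J, 129S1/SvImJ, PWD/Ph, DBA/2J, where A/J over C57BL/6J (edgeR adjusted p = 0.0496) and PWD/Ph over DBA/2J (edgeR adjusted p = 0.0036) passed. For Hbb-bt the order by CPM was A/J, 129S1/SvImJ, C57BL/6J, DBA/1J, PWD/Ph, DBA/2J. By the deposited FPKM, C57BL/6J came second for this gene, at a mean of 31.8 FPKM, above 129S1/SvImJ at 24.8 and DBA/1J at 24.4 FPKM. The CPM of 129S1/SvImJ and DBA/1J include 6 libraries whose Hbb-bt counts and FPKM disagree. By edgeR's test on the counts, DBA/1J over PWD/Ph and PWD/Ph over DBA/2J passed, and PWD/Ph and DBA/2J were the only neighbours for this gene whose libraries did not overlap. For Alas2 the order was PWD/Ph and A/J, followed by C57BL/6J, then DBA/1J, then DBA/2J and last 129S1/SvImJ, and no step between neighbours passed. Most steps between neighbours in these orders did not pass the test.

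Between single strains, most of the calls came from pairs with A/J or DBA/2J, and such pairs share libraries with one another. A/J over DBA/2J had 4 of 5 genes higher where 48.9% of tested genes were called, with 2.25-fold for Hba-a1, 2.35-fold for Hba-a2, 3.03-fold for Hbb-bs and 3.67-fold for Hbb-bt. The same 4 globins were higher in C57BL/6J than in DBA/2J, where 36.9% of genes were called, and in DBA/1J than in DBA/2J, where 54.9% were. They were lower in DBA/2J than in PWD/Ph, where 46.1% of genes were called. In 129S1/SvImJ over DBA/2J only Hba-a2, Hbb-bs and Hbb-bt were called, all higher, where 66.2% of genes were.

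A/J had the 4 globins higher than PWD/Ph, where 66.5% of genes were called, and Hba-a1, Hba-a2 and Hbb-bs higher than DBA/1J, where 37.2% were. Against C57BL/6J, A/J had Hba-a1 and Hbb-bs higher by edgeR, where 19.3% of genes were called, and DESeq2 called 0 of 5 there. In 129S1/SvImJ against A/J, 4 of 5 were lower where 50.4% of genes were called, here the alpha globins, Hbb-bs and Alas2. Against PWD/Ph, 129S1/SvImJ had Hbb-bt higher and Alas2 lower, where 73.8% of genes were called. C57BL/6J had both beta globins higher than PWD/Ph, where 60.3% of genes were called, and DBA/1J had Hbb-bt higher than PWD/Ph, where 70.5% were. The Hbb-bt counts of 129S1/SvImJ and DBA/1J include the 6 libraries whose Hbb-bt counts and FPKM disagree. By FPKM, Hbb-bt averaged 24.8 in 129S1/SvImJ, 24.4 in DBA/1J, 19.7 in PWD/Ph and 41.6 in A/J. The remaining pairs had 0 of 5 called by edgeR and by DESeq2. These were 129S1/SvImJ against C57BL/6J, where 60.8% of genes were called, 129S1/SvImJ against DBA/1J, where 40.7% were, and C57BL/6J against DBA/1J, where 48.8% were. At an unadjusted p under 0.05 these 3 pairs had 1, 1 and 0 genes.

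The ratios between the genes differed between strains too. Each was taken per library as a log2 ratio of counts with 0.5 added, and each strain was set against the others by an exact two-sided permutation test, with adjustment over the 24 tests. Alpha globin counts exceeded beta globin counts most in DBA/2J, with ratios of 1.52 to 2.11 in the 6 DBA/2J libraries. The mean log2 ratio was 0.78 ± 0.19 in DBA/2J (SD, n = 6), against 0.26 ± 0.23 in the others (n = 30), a difference of 0.52 (exact permutation p = 2.1e-05, adjusted p = 0.000253). In 129S1/SvImJ the alpha-to-beta ratio was the lowest, from 0.876 to 1.35. Its mean log2 ratio was -0.01 ± 0.23, against 0.42 ± 0.26 in the others (SD, n = 6 and 30), a difference of -0.44 (exact permutation p = 0.00057, adjusted p = 0.00456).

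Alas2 counts per 1000 globin counts were 6.07 to 27.5 in DBA/2J, 10.7 to 18.4 in PWD/Ph and 4.54 to 12.4 in the other 24 libraries. The log2 ratio of Alas2 to all globins was higher by 0.84 in DBA/2J (exact permutation p = 0.00144, adjusted p = 0.00575) and by 0.64 in PWD/Ph (exact permutation p = 0.0153, adjusted p = 0.0458). The PWD/Ph difference lost its call when any one of 23 libraries was left out. DBA/2J thus held more Alas2 counts for its globin counts, although its lowest value came from female replicate 2, a shallow library with 8 Alas2 counts.

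Within the alpha pair, Hba-a2 and Hba-a1 had near equal counts in 129S1/SvImJ, with ratios of 0.993 to 1.02, and in C57BL/6J, with 0.977 to 1.01. In the other 4 strains every library had fewer counts of Hba-a2 than of Hba-a1, with ratios of 0.817 to 0.951. The log2 ratio was higher by 0.16 in 129S1/SvImJ (exact permutation p = 6.2e-06, adjusted p = 0.000148) and by 0.14 in C57BL/6J (exact permutation p = 0.000963, adjusted p = 0.00462). It was lower by 0.14 in DBA/2J, a difference of -0.14 (exact permutation p = 0.000909, adjusted p = 0.00462). The deposited FPKM gave the same split, with Hba-a2 over Hba-a1 at 1.24 to 1.31 in 129S1/SvImJ, at 1.21 to 1.28 in C57BL/6J and at 0.824 to 1.14 in the rest. Whether this reflects transcripts or the assignment of shared reads to 1 differing coding base and the untranslated ends was not tested.

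**Figure D3:**
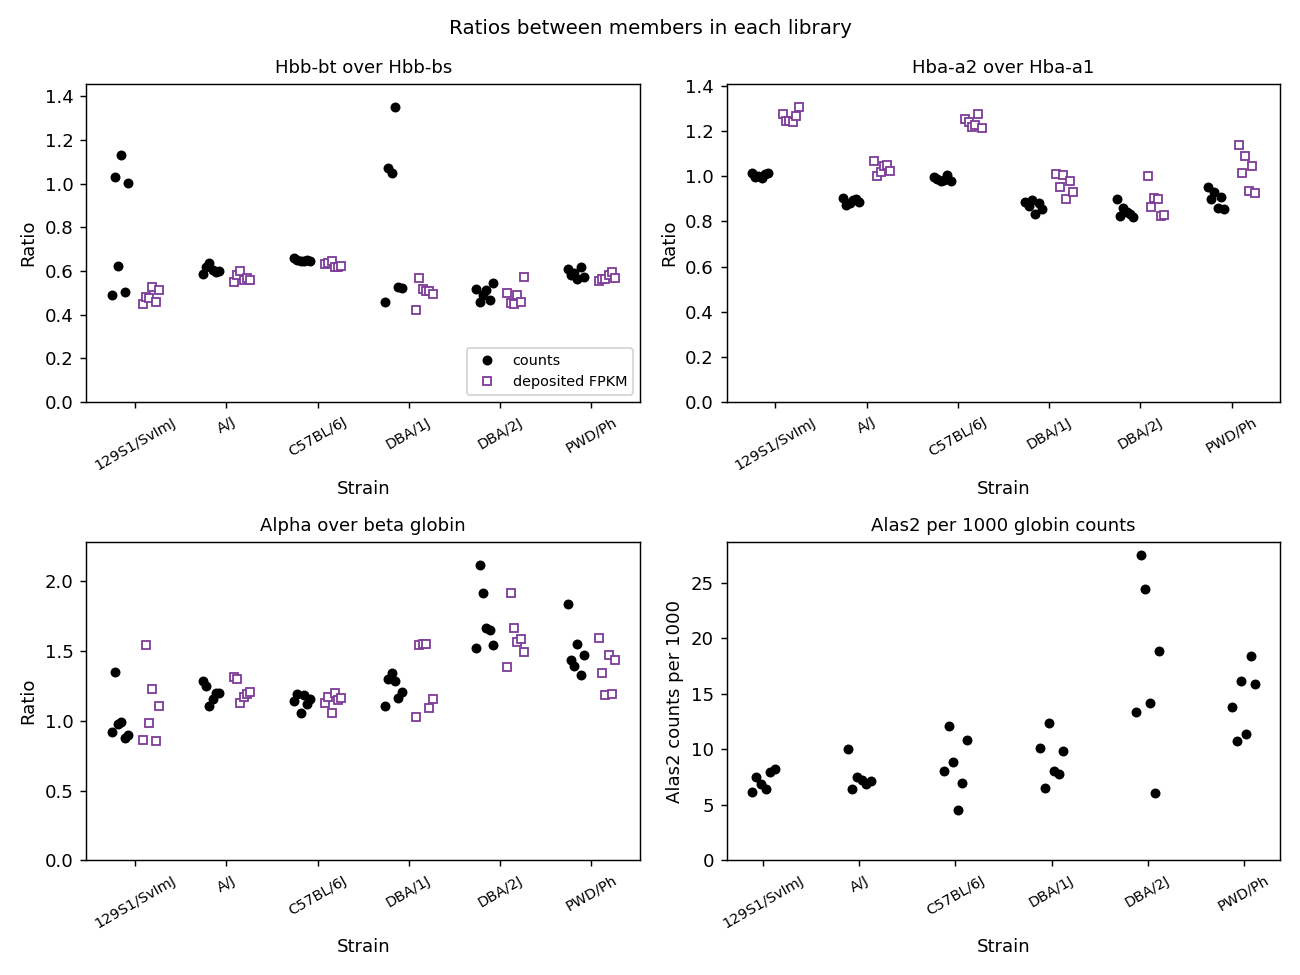
Ratios of Hbb-bt to Hbb-bs, of Hba-a2 to Hba-a1 and of alpha to beta globins in each library, from counts (filled) and from the deposited FPKM (open), and Alas2 counts per 1000 globin counts. For Hbb-bt over Hbb-bs, 6 libraries of 129S1/SvImJ and DBA/1J lie between 1.00 and 1.35 by counts and between 0.482 and 0.567 by FPKM.

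The beta pair differed both by strain and by library. Hbb-bt over Hbb-bs by counts was 0.645 to 0.659 in C57BL/6J, 0.585 to 0.635 in A/J, 0.563 to 0.618 in PWD/Ph and 0.458 to 0.544 in DBA/2J, whose libraries lay below those of the other 3. In 129S1/SvImJ and DBA/1J the 12 libraries fell apart, with 6 of them no higher than 0.659 and the other 6 higher, at 1.03 in 129S1/SvImJ male replicate 2, 1.13 and 1.00 in 129S1/SvImJ female replicates 1 and 3, 1.07 and 1.05 in DBA/1J male replicates 2 and 3, and 1.35 in DBA/1J female replicate 1. By the deposited FPKM those same 6 libraries had 0.482, 0.526, 0.512, 0.567, 0.516 and 0.509, within the 0.421 to 0.644 of the 36 libraries. Divided by FPKM and by library size, the Hbb-bt counts came to 2.46 to 2.93 in those libraries, against at most 1.65 in the other 30. For Hbb-bs this quotient was 1.11 to 1.35 in those libraries and 1.24 to 1.55 in the others, so the ranges overlapped with those libraries towards the lower end. The deposited counts and FPKM of the same libraries thus disagreed on Hbb-bt, and the cause was not tested.

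This bears on the strain results for Hbb-bt. By counts the log2 ratio of Hbb-bt to Hbb-bs was -0.41 ± 0.55 in 129S1/SvImJ, against -0.70 ± 0.35 in the others (SD, n = 6 and 30), a difference of 0.29 that did not pass (exact permutation p = 0.0854, adjusted p = 0.146). By FPKM the difference was -0.18 and passed (exact permutation, adjusted p = 0.0349). In DBA/2J the log2 ratio was -1.0 ± 0.09, against -0.58 ± 0.39 in the others, a difference of -0.42 (exact permutation p = 0.0151, adjusted p = 0.0458) whose call was lost when any one of 24 libraries was left out. Without the 6 libraries, a choice made after their values were seen, the 4 globin calls in A/J and in DBA/2J held. In 129S1/SvImJ the called genes were then Alas2 at -1.02, Hba-a1 at -0.79 and Hba-a2 at -0.63 on the log2 scale (edgeR adjusted p of 0.00284, 0.000624 and 0.00329), and in C57BL/6J Hbb-bs, Hba-a2 and Hbb-bt were called higher.

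No difference between females and males passed the test. Averaged over strains, 0 of the 5 passed edgeR's test, where 0.239% of tested genes did; 0 of 5 had an unadjusted p under 0.05, and DESeq2 called 0. Hba-a1 averaged 67.8 ± 25.2 CPM in females and 71.1 ± 27.4 CPM in males (SD, n = 18 each), a log2 fold change of -0.08 ± 0.11 (SE; edgeR adjusted p = 0.801). Hbb-bs averaged 63.3 ± 25.6 CPM in females and 65.7 ± 29.1 CPM in males, a log2 fold change of -0.01 ± 0.10 (SE; edgeR adjusted p = 0.981). Alas2 averaged 2.19 ± 0.94 CPM in females and 2.46 ± 0.62 CPM in males, with the largest of these differences, -0.23 ± 0.14 (SE; edgeR adjusted p = 0.453). None of the 4 ratios passed between the sexes after adjustment over the 4; for Hba-a2 over Hba-a1 the log2 difference was -0.03 (permutation p = 0.0264, adjusted p = 0.105), and the other adjusted p ran from 0.166 to 0.826.

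Within strains too, 0 of 5 passed edgeR's test in each of the 6, where 0.102% of tested genes did in 129S1/SvImJ, 5.32% in A/J, 0.279% in C57BL/6J, 0.0609% in DBA/1J, 0.0508% in DBA/2J and 0.122% in PWD/Ph. At an unadjusted p under 0.05 there were 3 of 5 in 129S1/SvImJ, 1 in C57BL/6J, 1 in DBA/1J and 0 in the other 3 strains, and DESeq2 called 0 in all 6. The largest differences were in 129S1/SvImJ. Hbb-bs had 58.1, 40.6 and 39.6 CPM in its 3 females, against 84.8, 85.5 and 66.7 CPM in its 3 males, with no overlap. Its log2 fold change was -0.78 ± 0.24 (SE; edgeR adjusted p = 0.238). Hba-a1 had 61.5, 26.6 and 35.3 CPM in these females, against 57.8, 117 and 53.0 CPM in the males, a log2 fold change of -0.88 ± 0.28 (SE; edgeR adjusted p = 0.238), and here female replicate 1 lay above 2 of the males.

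In DBA/1J the sign was the opposite. Hbb-bs had 47.8, 65.0 and 113.4 CPM in the females, against 50.8, 50.3 and 48.0 CPM in the males, a log2 fold change of 0.60 ± 0.24 (SE; edgeR adjusted p = 0.779) in which female replicate 3 was far above the others. In C57BL/6J, Hba-a1 had 59.6, 57.8 and 64.9 CPM in females against 96.6, 72.5 and 70.8 CPM in males. Its log2 fold change was -0.40 ± 0.27 (SE; edgeR adjusted p = 0.578). Alas2 in C57BL/6J had 0.990, 1.52 and 2.60 CPM in females against 2.90, 3.21 and 2.41 CPM in males, a log2 fold change of -0.74 ± 0.34 (SE; edgeR adjusted p = 0.355). By edgeR's interaction test, of whether the sex difference itself differed between strains, 0 of 5 genes were called, where 1.64% of tested genes were; the smallest adjusted p was 0.0847 for Hbb-bs, 3 of 5 had an unadjusted p under 0.05, and DESeq2 called 1, Hbb-bs, at an adjusted p of 0.0397. With no filter on low counts, edgeR called Hba-a1, Hba-a2 and Hbb-bs lower in 129S1/SvImJ females (adjusted p of 0.0371 to 0.0393). Without 129S1/SvImJ female replicate 1 it called 3 of the 5 genes between the sexes in that strain and 2 for the interaction, and without DBA/1J female replicate 1 it called 1 for the interaction.

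The globins moved together from animal to animal. On log2 CPM centred on the 12 groups, Hba-a1 and Hba-a2 correlated over the 36 libraries with r = 0.996 and rho = 0.991 (permutation within groups, p = 1e-05, the smallest that 100000 permutations could give, adjusted p = 3.33e-05 for both), a pair that shares most of its sequence. Hba-a1 and Hbb-bs, which share no 50-base window, had r = 0.69 and rho = 0.74 (permutation adjusted p = 0.00028 and 6e-05), and Hba-a1 and Hbb-bt r = 0.91 and rho = 0.90 (permutation adjusted p = 3.33e-05 for both). By the deposited FPKM, r of Hba-a1 was closer for the beta genes, at 0.778 with Hbb-bs and 0.824 with Hbb-bt. Hbb-bs and Hbb-bt, although near copies, had the weakest correlation among the globins by counts, r = 0.57 and rho = 0.65 (permutation adjusted p = 0.00622 and 0.00125). By the deposited FPKM their r was 0.966, second among the globin pairs to that of the alpha pair, 0.989. By counts, with the sex means left in, r for Hbb-bs and Hbb-bt was also taken over the 6 libraries of each strain. It was 0.997 in A/J, 0.980 in DBA/2J, 0.984 in PWD/Ph and above 0.999 in C57BL/6J. It was lower in 129S1/SvImJ, at 0.647, and DBA/1J, at 0.193, which hold the 6 libraries with high Hbb-bt counts. Without the 2 libraries farthest from the median of the first gene, r was 0.71 for Hba-a1 with Hbb-bs, 0.88 for Hba-a1 with Hbb-bt and 0.71 for Hbb-bs with Hbb-bt, and each kept its call.

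Alas2 went with the globins less closely, and not in every strain. Its r with Hba-a1 was 0.50 and rho 0.42 (permutation adjusted p = 0.0185 and 0.0479), while by the deposited FPKM r was 0.253 and did not pass (permutation adjusted p = 0.169). By counts its values with Hbb-bs were r = 0.29 and rho = 0.21 (permutation adjusted p = 0.176 and 0.288). Without 129S1/SvImJ male replicate 2 and female replicate 1, the 2 libraries farthest from the median of Hba-a1, its r with Hba-a1 was 0.39 and did not pass (permutation adjusted p = 0.0861). Within 129S1/SvImJ alone, r of Hba-a1 with Alas2 over its 6 libraries was 0.973, within A/J 0.793, DBA/1J 0.762, C57BL/6J 0.694 and PWD/Ph 0.279. Within DBA/2J it was negative by counts, r = -0.841 (exact permutation p = 0.0319, unadjusted), where Alas2 rested on 8 to 44 counts per library. These within-strain values were taken from counts only, and not from FPKM. They pooled both sexes with the sex means left in, unlike the centred r over the 36 libraries. Differences between the sexes therefore enter them.

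**Figure D4:**
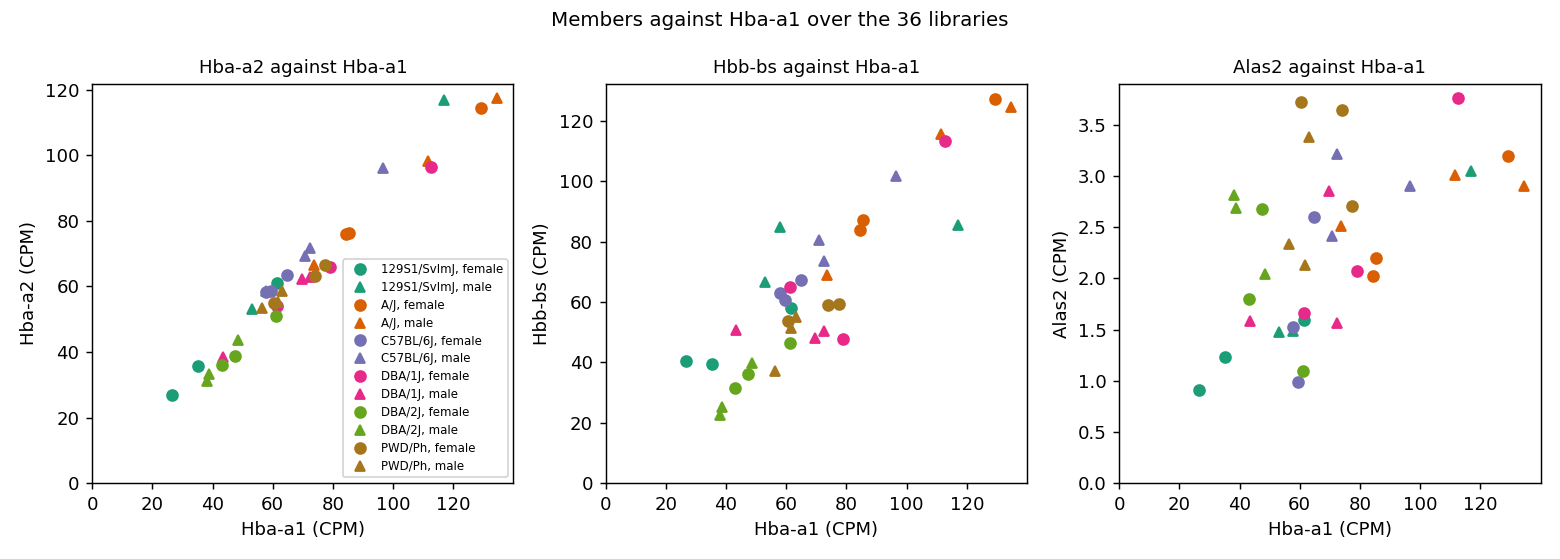
Levels in CPM of Hba-a2, Hbb-bs and Alas2 against Hba-a1 in the 36 libraries, coloured by strain, with circles for females and triangles for males. Hba-a2 lies on a line with Hba-a1, Hbb-bs scatters more, and in the Alas2 panel the DBA/2J libraries run downwards while the 129S1/SvImJ libraries run upwards.

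The other genes of oxygen binding and haem handling, in lists drawn up with earlier results of these data known, are given next. Of all tested genes, the share called in the same comparisons was 33.2% in A/J, 49.5% in DBA/2J, 67.4% in 129S1/SvImJ and 70.5% in PWD/Ph. Of 9 other globin genes, Hba-x, Hbb-bh1 and Hbb-bh2, which serve the embryo, had 0 counts in all 36 libraries and Hbb-y 2 counts in 1 library, and 4 were tested. In A/J, 2 of these 4 were higher and 0 lower. They were Hbq1a and Hbq1b, theta globin genes of the alpha cluster, with log2 fold changes of 1.44 ± 0.21 and 1.15 ± 0.17 (SE; edgeR adjusted p = 2.36e-06 and 2.26e-06). In DBA/2J, where the adult globins were lower, 2 of 4 were higher and 1 lower. Hbq1a was higher by 1.44 ± 0.24 and Hbq1b by 0.89 ± 0.20 on the log2 scale (SE; edgeR adjusted p = 1.06e-05 and 0.000527), while Cygb, cytoglobin, was lower, at -0.54 ± 0.08 (SE; edgeR adjusted p = 8.74e-07). Hbq1a averaged 1.78 ± 0.872 CPM in DBA/2J, 3.04 ± 0.626 in DBA/1J, 1.95 ± 0.561 in A/J and 0.212 ± 0.123 in C57BL/6J (SD, n = 6 each).

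Of the 8 other enzymes of haem synthesis, all tested, 3 were higher and 1 lower in A/J, 2 higher and 0 lower in DBA/2J, 6 higher and 1 lower in 129S1/SvImJ, and 0 higher and 7 lower in PWD/Ph, the strain with the highest Alas2. In A/J, 4 of the 8 were called, above the share of all tested genes called there, 33.2%. In DBA/2J, 2 of the 8 were, below the share of 49.5%. In PWD/Ph, where 70.5% of all tested genes were called and 36% were lower, the list's median log2 fold change was -0.36, against -0.02 over all tested genes. Alad, the enzyme after aminolevulinate synthase, was lower there at -1.76 ± 0.08 on the log2 scale, and Uros, uroporphyrinogen synthase, at -1.15 ± 0.07 (SE; edgeR adjusted p = 3.83e-18 and 5.21e-15). Alas1, the general form of the enzyme that Alas2 encodes, was lower in PWD/Ph, at -0.36 ± 0.05, and higher in 129S1/SvImJ, at 0.37 ± 0.05 (SE; edgeR adjusted p = 4.21e-07 and 6.26e-08), in each case with the opposite sign to Alas2.

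Genes that define red cells by other functions were mostly near 0. Of 22 such genes 9 were tested. Hemgn had 0 counts in 32 of 36 libraries and Gata1, the erythroid transcription factor, in 33, and Slc4a1 had a median of 2.5 counts. The tested ones are largely genes that the brain also expresses, such as Bnip3l at a median of 137 CPM. In A/J, with the highest globins, 0 of the 9 passed edgeR's test after adjustment, where 33.2% of all tested genes did. Of the 9, Isg20 and Bnip3l had an unadjusted edgeR p under 0.05, at 0.0251 and 0.0254. DESeq2 also called 0 of the 9. In DBA/2J, where 49.5% of all tested genes were called, 2 were higher and 2 lower. The source of the globin RNA was not tested.

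Genes of other blood cells and of vessels were counted in the same way. Of 8 platelet genes 5 were tested, and 4 of them were lower and 0 higher in DBA/2J, where 24.4% of all tested genes were lower, with a median log2 fold change of -0.78 against -0.01 over all tested genes. Pf4, platelet factor 4, was near the floor, with a median of 5.5 counts per library and 0 counts in 4 libraries. It had 0.044 ± 0.0683 CPM in DBA/2J, which includes the shallow libraries, against 0.267 to 0.464 CPM as the means of the other 5 strains. Gp1bb, a subunit of a platelet receptor that reached 53.4 CPM or more in every library, was lower at -0.65 ± 0.08 (SE; edgeR adjusted p = 7.61e-08). Its median of 91.9 CPM was far above that of Gp1ba, the next highest platelet gene, at 1.93 CPM. Whether its reads came from platelets was not tested. In A/J, where 33.2% of all tested genes were called, 2 of the 5 were higher and 1 lower. Pf4 at 1.24 ± 0.46 and Clec1b at 0.85 ± 0.33 were higher (SE; edgeR adjusted p = 0.0361 and 0.0441). Clec1b also had a median of only 5.5 counts per library. In DBA/2J the endothelial list had 6 higher and 1 lower of 16, where 49.5% of all tested genes were called. In A/J it had 3 higher and 4 lower, where 33.2% were called. The summed level of the 16 endothelial genes ran from 326 to 386 CPM in DBA/2J and from 327 to 381 CPM in A/J. The median of the platelet genes' mean r with the 5 genes, over libraries centred on their groups, was 0.11. The part of these genes in the globin results was not tested.

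Of the 11 tested genes of haemoglobin and haem clearance, 3 were higher and 2 lower in A/J, where 33.2% of all tested genes were called. In DBA/2J, where 49.5% were called, 1 was higher and 2 lower. Blvrb, biliverdin reductase B, was higher in A/J at 0.77 ± 0.11 and lower in DBA/2J at -0.82 ± 0.15 (SE; edgeR adjusted p = 2.11e-06 and 3.64e-05). Its level was highest in 129S1/SvImJ, at 10.5 ± 1.72 CPM, above A/J at 7.41 ± 0.924, and lowest in PWD/Ph, at 2.79 ± 1.11, next to DBA/2J at 2.94 ± 0.527 CPM (SD, n = 6 each), so that its order of strains was not that of the globins. Of 8 microglial genes, 6 were higher and 0 lower in A/J, where 33.2% of all tested genes were called, and 1 was higher and 5 lower in DBA/2J, where 49.5% were. In PWD/Ph, where 70.5% of all tested genes were called, 1 of the 8 was higher and 5 lower. In DBA/1J, where 53.4% were called, 4 were higher and 2 lower. In both of these strains 0 of the 4 adult globins were called as single genes. The summed beta pair was called lower in PWD/Ph, at -0.31 on the log2 scale (edgeR adjusted p = 0.0494).

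By mean correlation with the 5 genes over the 36 libraries, on log2 CPM centred on the groups, the 12 genes most like them had a mean r of 0.521 to 0.581. Asgr1, a receptor of asialoglycoproteins, led with 0.581 at a mean level of 0.503 CPM, followed by 4930523C07Rik with 0.562 and Gm17120 with 0.551. Next came Col1a1 with 0.549 and Col1a2 with 0.548, the chains of type I collagen, and Slc6a20a with 0.547. Gm17120 and Gm17201 are antisense genes, whose reads cannot be told from those of their partners without strand. The other 6 were Mrc2, Bicc1, Gm17201, Slc35b1, Ackr1, the atypical chemokine receptor also carried by red cells and venules, and Fxyd5. Of the cell lists, the 12 meningeal fibroblast genes, which include Col1a1 and Col1a2, had the highest median of this mean r, 0.386, and the 3 tested white blood cell genes 0.36. Those 3 genes, S100a9, Lcn2 and Ms4a4b, had medians of only 2.5, 1 and 3.5 counts per library. The oligodendrocyte genes had 0.289, the mural cell genes 0.245 and the choroid plexus genes 0.207. The endothelial genes had 0.15, the other red cell genes 0.0422 and all tested genes 0.00733. The summed level of the meningeal fibroblast genes ran from 110 to 513 CPM over the libraries and that of the choroid plexus genes from 152 to 5651 CPM, and their part in the spread of the globins was not tested.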

How the data were processed

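The gene-level read counts and the FPKM values (fragment counts scaled for transcript length and library depth) were made and deposited by the authors. The submitters' processing notes name Trimmomatic 0.32, TopHat2 2.0.13, SAMtools, DESeq2 1.8.1, Cufflinks 2.1.1 and the build GRCm38/mm10. The program that made the counts, its handling of strand and of reads shared by near-identical genes, and the annotation are left unstated by the sources used here. Libraries were sequenced 6 to a lane, per the labels' protocols, but which of them shared a lane was not recorded, so no batch could be checked. Each table held 37315 genes, of which 35449 identifiers matched a symbol and 1866 did not; 12 genes had no FPKM value, and 0 columns lacked a sample. Library totals ran from 6493512 to 35232515 counts, and this number of reads limits the precision of low genes such as Alas2. Any pair of replicate libraries differed in at least 2.73% of its counts, so none was treated as a duplicate.

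Counts were scaled by TMM, filtered at a minimum count of 10 and a minimum total of 15, which left 19702 genes, and tested with edgeR's quasi-likelihood test over 12 groups of sex and strain with 24 residual degrees of freedom. Adjusted p-values are Benjamini-Hochberg values over all tested genes, called at 0.05. Log2 ratios between members used counts with 0.5 added and an exact permutation test, two-sided, of 6 libraries against the other 30, adjusted over 24 tests. Correlations over all libraries used log2(CPM + 0.5) with each group's mean removed and 100000 permutations, adjusted over 10 pairs. Those within 1 strain kept the sex means in and were permuted over its 6 libraries. Alternatives were DESeq2 size factors, the DESeq2 test, no filter, at least 1 CPM in 3 libraries, edgeR's robust fit, the replicate number as a block, limma on log2(FPKM + 0.1) and log2(FPKM + 1), summed near-identical pairs, no PWD/Ph libraries, and each library left out. The 6 libraries with high Hbb-bt, the 3 shallowest DBA/2J libraries and A/J Female 3 were also left out, as alternatives added after seeing the data. The fits were tested on simulated data with known changes.

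The members and gene lists were chosen with earlier results of these data known. All 5 members are given in every comparison. From each list, up to 4 detected genes with the smallest p in the comparison described are named, and the 12 tested genes with the highest mean correlation with the members. Transcript windows came from GENCODE M21 and promoters from RefSeq on GRCm38.p6. Tools were R 4.3.3, edgeR 4.0.16, limma 3.58.1, DESeq2 1.42.0, Python 3.11.15, NumPy 2.4.6, pandas 2.3.3 and SciPy 1.17.1.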

Additional observations from a re-analysis of the deposited data

Results flagged for a closer look

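Within each strain, the 6 libraries were screened for a single library whose gap to the nearest other was a larger share of the whole range than Dixon's 95% critical value. Over 54 such screens 8 flags arose, where chance flags a single screen about 1 time in 20. The screens used correlated genes and ratios of the same counts, so whether 8 exceeds chance cannot be told. Why these libraries differ was not tested.

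In both Alas2 and the globin ratio, male 2 of 129S1/SvImJ stood above the other 5 libraries of its strain. Its Alas2 level was 3.05 CPM, against 0.914 to 1.59 CPM in the others, and its log2 ratio of alpha to beta globin counts was 0.43, against -0.19 to -0.01. Male 1 of A/J had the highest log2 ratio of Alas2 to all globin counts in its strain, at -6.62, against -7.28 to -7.04. Male 1 of C57BL/6J had 96.2 CPM of Hba-a2, against 58.2 to 71.7 CPM in the other C57BL/6J libraries. The same library had a log2 ratio of Hbb-bt to Hbb-bs of -0.60, against -0.63 to -0.62, a gap that was small in size. Female 3 of DBA/1J had 113.4 CPM of Hbb-bs, against 47.8 to 65.0 CPM. Male 1 of PWD/Ph stood below its strain in both beta globin genes, with 37.1 CPM of Hbb-bs against 51.6 to 59.4 CPM, and 22.7 CPM of Hbb-bt against 30.04 to 33.9 CPM.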

How the results depend on the processing

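In A/J and in DBA/2J, 4 globin genes were called under every alternative run, including each library left out, and both pairs were when summed. Where the number of members called changed, the cause was not tested. With no low-count filter it was 3 for sex in 129S1/SvImJ, 3 for the interaction of sex and strain, 3 for 129S1/SvImJ against the others, 1 for DBA/1J and 2 for PWD/Ph, in place of 0, 0, 1, 0 and 1. DESeq2 gave 1 for the interaction, Hbb-bs with an adjusted p of 0.0397, and 0 for C57BL/6J, as did edgeR's robust fit and the fit without PWD/Ph, in place of 1. Requiring 1 CPM in 3 libraries gave 2 for 129S1/SvImJ. Summing the near-identical pairs, with both genes of a called pair counted, gave 2 for C57BL/6J and 3 for PWD/Ph. Without the 6 libraries with high Hbb-bt, left out after seeing the data, it was 2 for the interaction, 3 for 129S1/SvImJ and 3 for C57BL/6J.

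With each library left out in turn, the number called ranged from 0 to 3 for sex in 129S1/SvImJ (3 without its female 1), 0 to 2 for the interaction, 1 to 3 for 129S1/SvImJ (above 1 without any of 23 libraries) and 0 to 1 for C57BL/6J (0 without any of 11 libraries). It ranged from 0 to 1 for DBA/1J, with 1 when male 2 or female 1 of 129S1/SvImJ, male 1 or female 2 of DBA/1J, or male 1 of DBA/2J was missing. It ranged from 0 to 2 for PWD/Ph, with 0 without its male 3 and 2 when male 1 or female 2 of 129S1/SvImJ, male 1 of A/J, or male 1 or female 2 of DBA/1J was missing. Of the log2 ratios, that of Hbb-bt to Hbb-bs ranged from -0.45 to -0.39 for DBA/2J and from 0.14 to 0.45 for DBA/1J, where it passed the exact permutation test only without male 1 of DBA/1J (adjusted p = 0.0441). The ratio of Alas2 to globin ranged from 0.56 to 0.72 for PWD/Ph, and that of alpha to beta from 0.22 to 0.31, passing only without male 2 of DBA/2J (adjusted p = 0.0362, exact permutation test).

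With FPKM in place of counts, the log2 ratio of Hbb-bt to Hbb-bs reversed to -0.18 for 129S1/SvImJ and reached 0.27 for C57BL/6J, while that of Alas2 to globin was 0.68 for PWD/Ph (adjusted p = 0.058, exact permutation test). Without the high Hbb-bt libraries these were 0.24 for C57BL/6J and 0.59 for PWD/Ph. By counts within DBA/2J alone, over its 6 libraries with the sex means left in, the correlation with Alas2 was negative. It was -0.841 for Hba-a1, -0.833 for Hba-a2 and -0.642 for Hbb-bt.

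Deviations of same-numbered females and males from their group means had correlations of -0.453 to 0.426, and 3 of 18 pairs were above 0.1. With 3 libraries per group, these values cannot settle whether the numbers pair the samples. With the replicate block, 0 members were called for sex averaged over strains, 5 for any strain difference, 4 each for A/J and DBA/2J, 1 each for PWD/Ph, C57BL/6J and 129S1/SvImJ, and 0 for DBA/1J, the same numbers as without it. Depth limits Alas2 most, with 8 to 110 counts per library.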
